A study of Mus musculus with 3 samples.

Results

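Cycling skeletal cells of the adult mouse jaw joint were described here, meaning cells of the 13-week condyle that carried RNA of the proliferation genes Mki67 and Top2a. They were chosen by their own counts in the 13-week library. A cell passed with 500 or more genes and no more than 10% of its UMIs (unique molecular identifiers, 1 per captured RNA molecule) from mitochondrial genes. A passing cell counted as cycling with at least 1 UMI of Mki67, at least 1 UMI of Top2a and no UMI of Ptprc or Pecam1, which mark blood and endothelial cells. This gave 489 cycling cells among 8028 kept cells of the library, or 6.09% (95% interval 5.58% to 6.64%), and among 16589 kept cells of the whole series. They are set against 6631 non-cycling cells of the same library with no UMI of any of these 4 genes. Since Mki67 and Top2a chose the cells, every difference between the groups of this library is a description and has no test.

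The series compared condylar cartilage of the temporomandibular joint in wild-type C57BL6 mice at 3 stages, E16.5, P0 and 13w. Per the labels' protocols, condyles of 7 to 20 mice were pooled at each age, digested with collagenase A and dispase 2, and sorted as live cells that took up Calcein and excluded DAPI. Each pool became 1 library of the 10x Genomics 3′ chemistry v.3.1, in which each molecule is read near its 3′ end, so there was no replicate at any stage and no p-value was possible. The same rule found 1186 cycling cells among 4562 kept cells at E16.5 and 527 among 3999 at P0. Intervals given here are 95% and cover counting error only, and neither mice nor libraries.

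Adult cycling cells were deeper than the cells they are set against. Their median was 21240 UMIs and 4526 genes per cell, against 10428 UMIs and 2910 genes in non-cycling cells, and the mitochondrial share was 2.94% against 3.50%. A cycling cell held a median of 10 Mki67 UMIs (1 to 103) and 17 Top2a UMIs (1 to 115). Of the cycling cells, 16 held exactly 1 UMI of each gene. At this edge of the rule the summed G2 and mitosis genes stood at 1680 CPM (UMIs per 1000000 UMIs of the group), against 13145 CPM over all cycling cells and 238 CPM in non-cycling cells. Just outside it, 172 cells with Mki67 alone stood at 798 CPM and 305 cells with Top2a alone at 455 CPM. Between the libraries 10 to 15 barcodes were shared, none of them between cycling cells.

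The label was checked against markers. Skeletal mesenchyme markers (Prrx1, Col1a1, Col1a2, Pdgfra, Sox9, Runx2, Col2a1, Acan, Dcn and Col3a1) reached a median of 714 UMIs per cycling cell, and 488 of 489 cells held at least 3. Birc5, the survivin gene of the chromosomal passenger complex, stood at 590 CPM in cycling cells and 2.37 CPM in non-cycling cells. It is a mitosis gene, so the rule makes this difference likely and it is no independent check. The fourth marker, Hhip, is described below with the hedgehog genes. Muscle markers reached 3 UMIs in 0 cycling cells, with 7 of the list's 9 genes at 0, and endothelial markers had a maximum of 4 UMIs, with 4 of 10 at 0. Markers of mural cells reached 3 UMIs in 81.4% of cycling cells and 60.5% of non-cycling cells, with 3 of 8 at 0, and their summed level was 429 CPM against 491 CPM. The osteoclast list, which holds Ctsk, reached 3 UMIs in 78.1% and 54.2%, with 3 of 7 at 0 and sums of 269 CPM and 292 CPM.

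Some cycling cells carried blood markers although the rule bars Ptprc. At least 3 UMIs of any blood class were found in 52 of 489 cycling cells (10.6%), against 4.78% of non-cycling cells. Neutrophil markers summed to 2923 CPM in cycling cells and 124 CPM in non-cycling cells, with 0 to 8352 UMIs per cycling cell and 2 of 11 markers at 0. Granulocyte progenitor markers summed to 354.9 CPM in cycling cells and 31.0 CPM in non-cycling cells, with 1 of 9 at 0. The main counts that follow were therefore also made without the cells that hold at least 3 blood-marker UMIs, which leaves 437 cycling cells. Cells with high doublet scores made up 19.4% of cycling cells and 5.07% of non-cycling cells.

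Condylar cartilage is layered. A fibrous surface that makes the lubricant Prg4 covers a layer of polymorphic progenitors that express type I collagen, followed by chondrocytes that deposit type II collagen and aggrecan, and by hypertrophic chondrocytes that make type X collagen and mineralise. Prehypertrophic chondrocytes secrete Indian hedgehog (Ihh), which keeps cells above them dividing and, in the growth plate, induces Pthlh, which holds back hypertrophy through its receptor Pth1r. Cells that receive hedgehog switch on Gli1, Ptch1 and Hhip, and Ptch1 and Hhip bind the ligand and limit its action. A dividing cell first copies its DNA in S phase with the Mcm helicase and nucleotide enzymes, and then builds the mitotic spindle.

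Cell cycle genes were higher together, as the rule makes likely. Genes were measured where either group reached 10 CPM, and called higher or lower where the groups differed 2-fold or more and the interval of the ratio excluded 1. Of 8013 measured genes, 845 were higher in cycling than in non-cycling cells (10.5%) and 290 were lower (3.62%), with a median log2 ratio over all of 0.09. Without the blood-marker cells 829 were higher (10.4%) and 296 lower (3.71%), and 805 and 274 genes were called in both. Of the G2 and mitosis list, 47 of 48 measured genes were higher and 0 lower (median log2 7.33), and this list includes Mki67 and Top2a. Of the S phase and DNA replication list, 36 of 36 measured genes were higher (median log2 3.00). Nothing is read from these counts, since the rule used this contrast.

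Among the mitosis genes, Pbk, a mitotic kinase, stood at 232 CPM in cycling cells and 0.490 CPM in non-cycling cells (log2 8.89, interval 8.45 to 9.36). Hmmr, a spindle-binding hyaluronan receptor, had 409 CPM in cycling cells against 0.935 CPM in non-cycling cells, Ube2c of the anaphase ubiquitin pathway 759.6 CPM against 2.49 CPM, and Depdc1a 163 CPM against 0.388 CPM. Aurkb, the Aurora B kinase, Ccna2, cyclin A2, Esco2, a cohesin acetyltransferase, and the histone gene Hist1h3c were the others among the 10 largest ratios, with log2 of 8.55 to 8.70. Of the S phase genes, Pclaf, a partner of the replication clamp, had 247 CPM in cycling cells and 1.22 CPM in non-cycling cells (log2 7.66). Thymidine kinase Tk1 had 129 CPM in cycling cells and 1.0 CPM in non-cycling cells, and the ratios of the reductase subunit Rrm2 and of Uhrf1, which carries DNA methylation through replication, were log2 5.49 and 5.72. Chromatin and tubulin genes joined them, with 15 of 20 measured genes higher and 0 lower (median log2 2.09). The microtubule destabiliser Stmn1 had 1801 CPM in cycling cells and 17.5 CPM in non-cycling cells, and the chromatin protein Hmgb2 had 1617 CPM against 96.5 CPM.

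Promoters of the lists are shown because genes that peak in mitosis and genes that peak in S phase are known to carry different short motifs. The letters TTTGAA or TTCAAA (the CHR), read on both strands, lay within 250 bases before to 50 bases after at least 1 listed start of 29 of 40 matched genes of the G2 and mitosis list (72.5%), of 5 of 31 matched S phase genes (16.1%) and of 20.2% of 27018 genes in the RefSeq table. CCAAT or ATTGG lay in 29 of 40 mitosis genes (72.5%), 18 of 31 S phase genes (58.1%) and 41.1% of all genes. A CCAAT match may overlap the CHR by 1 base. The E2F letters TTCCCGC or GCGGGAA lay in 1 of 40 mitosis genes (2.5%), in 14 of 31 S phase genes (45.2%) and in 5.29% of all. Among 6394 matched genes measured at 13w, the shares were 14.1% for the CHR, 43.0% for CCAAT and 10.8% for E2F. The CHR share of S phase genes was thus near that of measured genes. A match is not a bound site. The 150 bases before the start are printed 5′ to 3′ on the gene's strand (RefSeq, GRCm38.p6), with these letters in capitals, for 3 mitosis genes, Ube2c at chr2:164769779-164769928 (plus strand), Depdc1a at chr3:159495283-159495432 (plus) and Top2a at chr11:99024190-99024339 (minus), and for the S phase gene Uhrf1 at chr17:56303187-56303336 (plus).
Ube2c: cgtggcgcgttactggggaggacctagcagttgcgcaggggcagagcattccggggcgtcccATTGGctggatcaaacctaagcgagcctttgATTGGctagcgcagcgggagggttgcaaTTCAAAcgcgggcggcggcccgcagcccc
Depdc1a: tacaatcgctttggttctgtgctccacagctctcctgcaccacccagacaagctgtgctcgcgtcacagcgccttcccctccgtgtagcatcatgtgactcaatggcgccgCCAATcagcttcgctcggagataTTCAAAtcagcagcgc
Top2a: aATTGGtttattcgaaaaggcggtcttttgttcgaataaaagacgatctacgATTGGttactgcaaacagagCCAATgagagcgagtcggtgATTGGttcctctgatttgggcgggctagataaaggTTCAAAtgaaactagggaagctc
Uhrf1: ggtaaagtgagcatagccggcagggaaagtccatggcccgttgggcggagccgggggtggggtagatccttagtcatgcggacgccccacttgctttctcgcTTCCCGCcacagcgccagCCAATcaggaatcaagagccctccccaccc
In the mitosis promoters the CHR letters began 29, 16 and 23 bases before the start in Ube2c, Depdc1a and Top2a. Uhrf1 held no CHR letters in this window, and its E2F letters began 48 bases before the start. The table lists another Uhrf1 start, whose 150 preceding bases (chr17:56304163-56304312) held 0 E2F matches and 2 CCAAT matches.

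Mitosis outweighed S phase in nearly every adult cycling cell. With each cell thinned at random to 3000 UMIs, the G2 and mitosis list held more UMIs than the S phase list in 445 of 484 cycling cells at 13w (91.9%). The same held in 770 of 1178 at E16.5 (65.4%) and 421 of 524 at P0 (80.3%). The lists differ in length and Mki67 and Top2a were left out of this sum, and the rule asks for RNA of those 2 genes at all 3 stages, so cycling cells without it are not included.

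Regulators of the G1 to S step went both ways. Of D-type cyclins, cyclin-dependent kinase (CDK) inhibitors and their partners, 7 of 24 measured genes were higher in cycling cells, 2 were lower and the median log2 ratio was 0.11. Of the INK4 inhibitor genes, 3 were among the higher ones, and Cdkn2b, with 13.3 CPM in cycling cells and 7.09 CPM in non-cycling cells (log2 0.90), did not pass. Cdkn2c had 424 CPM in cycling cells and 44.4 CPM in non-cycling cells (log2 3.26), Cdkn2d had 383 CPM against 48.8 CPM (log2 2.97), and Cdkn2a had 43.6 CPM against 5.83 CPM (log2 2.90, interval 2.72 to 3.08). Cdkn2a UMIs lay in 244 cycling cells. After thinning they lay in 11.8% of cycling cells, 1.48% of non-cycling cells and 0 of 145 blood cells with neutrophil genes, the cells used here to gauge free RNA (median 6888 UMIs).

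Cdkn2a was nearly absent from younger cycling cells, at 0.401 CPM at E16.5 and 1.34 CPM at P0. Of its products, p16 is known for arresting the cycle and for rising with age. UMIs counted per gene do not tell the products apart, so p16 itself was not measured. Rbl1, a pocket protein of the retinoblastoma family, had 29.1 CPM in cycling cells and 2.68 CPM in non-cycling cells. The kinase gene Cdk6 had 168 CPM in cycling cells and 46.5 CPM in non-cycling cells (log2 1.86), whereas the same ratio was log2 -0.25 at E16.5 and 0.24 at P0. Cyclin D2, Ccnd2, was lower, with 62.0 CPM in cycling cells and 176 CPM in non-cycling cells (log2 -1.51), and so was Cdkn1c, the imprinted p57 inhibitor, with 99.0 CPM against 325 CPM (log2 -1.71).

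**Figure D1:**
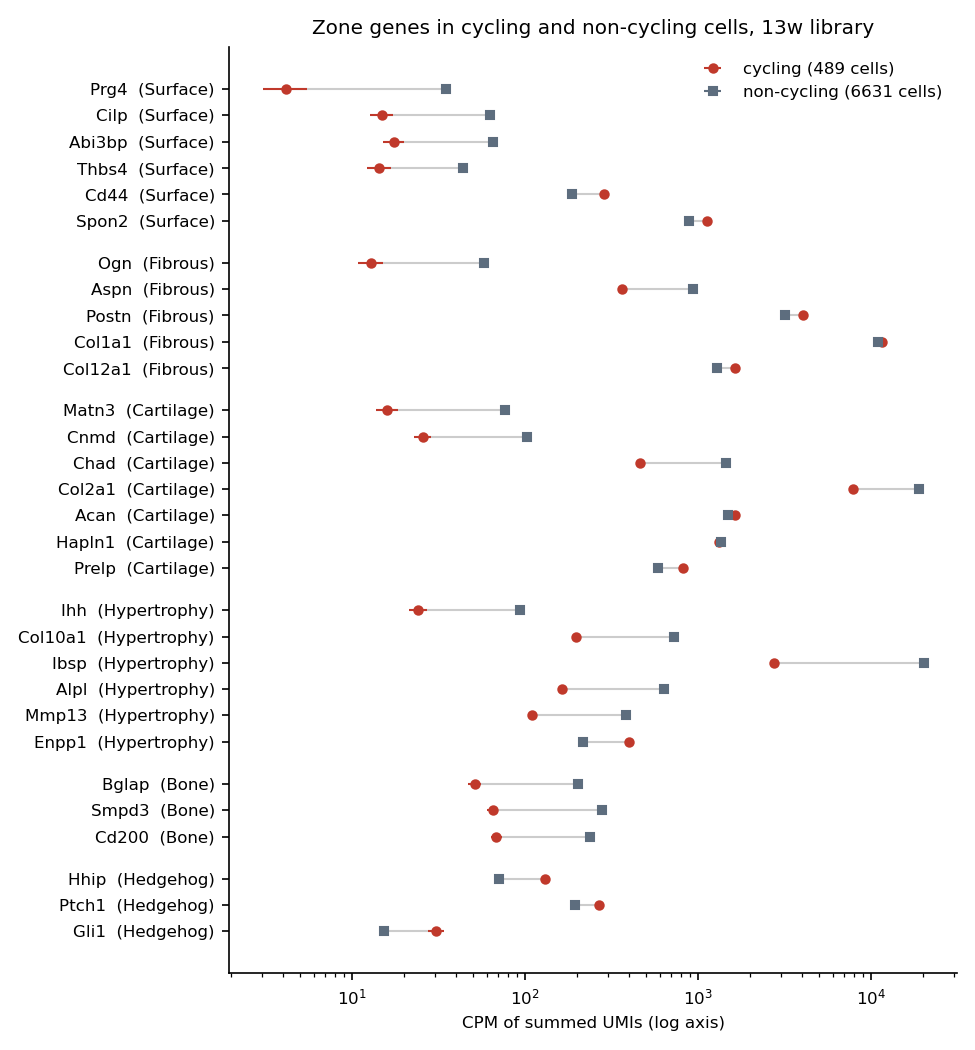
Level of zone genes in the 13w library, as CPM of summed UMIs on a log axis, with 489 cycling cells and 6631 non-cycling cells as separate symbols and 95% counting intervals as bars. Hypertrophy and bone genes such as Ibsp and Bglap sit lower in cycling cells, while Acan and Postn sit close together in both groups.

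Most genes of the fibrous layer stood near the level of non-cycling cells, as did Acan, while 8 of 20 measured cartilage genes were lower. Periostin, Postn, a matrix protein of fibrous tissue under load, had 4041 CPM in cycling cells and 3190 CPM in non-cycling cells. Before thinning, at least 1 UMI of Postn and of Acan lay together in 464 of 489 cycling cells (94.9%), and after it in 424 of 484. The joint count was not made in non-cycling cells, so it does not set the groups apart. After thinning, Postn UMIs lay in 95.5% of cycling cells, 83.0% of non-cycling cells and 47.6% of the blood cells. The fibrous matrix list had 0 higher and 2 lower of 22 measured genes and a median log2 ratio of -0.02. Its lower genes were the small leucine-rich proteoglycans Ogn, with 12.8 CPM in cycling cells and 57.7 CPM in non-cycling cells, and Aspn, with 362 CPM against 937 CPM. Type I collagen Col1a1 was at log2 0.08 and the fibril-associated collagen Col12a1 at log2 0.34.

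Surface-zone genes divided. Of 18 measured genes 0 were higher and 5 lower, with a median log2 ratio of -0.51 (0 and 6 without blood-marker cells). Prg4, the joint lubricant, had 4.12 CPM in cycling cells and 34.8 CPM in non-cycling cells (log2 -3.08, interval -3.53 to -2.66), and its UMIs lay in 14 cycling cells. Its thinned shares were 0.620% of cycling cells, 3.55% of non-cycling cells and 0.690% of the blood cells. Cilp, a surface matrix protein, had 14.8 CPM against 62.6 CPM, Abi3bp 17.4 CPM against 65.4 CPM, and Thbs4, a thrombospondin, 14.3 CPM against 43.9 CPM. Fn1, fibronectin, was just past 2-fold, with 2039 CPM in cycling cells and 4104 CPM in non-cycling cells. Other surface genes did not pass: Spon2 had 1128 CPM in cycling cells and 881 CPM in non-cycling cells, and Cd44, the hyaluronan receptor, had 286 CPM against 188 CPM.

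Cartilage matrix genes were lower in part. Of 20 measured genes, 8 were lower and 0 higher, with a median log2 ratio of -0.88 (8 and 0 without blood-marker cells). Type II collagen, Col2a1, had 7844 CPM in cycling cells and 18993 CPM in non-cycling cells (log2 -1.28). Several other genes of the list lay further down. Matn3, a matrilin that bridges collagen fibrils, had 16.0 CPM in cycling cells and 76.6 CPM in non-cycling cells, Cnmd, the anti-angiogenic chondromodulin, 25.6 CPM against 102 CPM, Ucma 11.9 CPM against 46.0 CPM, and Chad, chondroadherin, 464 CPM against 1445 CPM. Acan, the aggrecan core protein, had 1634 CPM in cycling cells and 1491 CPM in non-cycling cells. Hapln1, which links aggrecan to hyaluronan, was at log2 -0.05, and Prelp had 818 CPM against 584 CPM. Acan UMIs lay in 89.0% of thinned cycling cells, 78.5% of thinned non-cycling cells and 29.0% of the blood cells, and in 95.9% and 87.1% before thinning.

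Hypertrophy and mineral genes were lower in cycling cells in 8 of 18 measured and higher in 0 (median log2 -0.83). Ibsp, bone sialoprotein, had 2756 CPM in cycling cells and 20183 CPM in non-cycling cells (log2 -2.87). Ihh had 24.1 CPM against 92.8 CPM (log2 -1.94), and its UMIs lay in 25 cycling cells. After thinning Ihh UMIs lay in 2.07% of cycling cells, 6.0% of non-cycling cells and 2.76% of the blood cells, so the share in cycling cells is at the level of free RNA. Alpl, the phosphatase that frees phosphate for mineral, had 164 CPM in cycling cells and 635 CPM in non-cycling cells. Col10a1, type X collagen, had 197 CPM against 726 CPM, and 1 cell gave 41.1% of the cycling count. Pth1r had 456 CPM in cycling cells and 1047 CPM in non-cycling cells (log2 -1.20), with UMIs in 443 cycling cells. Enpp1, which makes the mineral inhibitor pyrophosphate, went the other way without passing, with 398 CPM in cycling cells and 216 CPM in non-cycling cells (log2 0.88).

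Bone-type genes were lower nearly throughout, in 10 of 11 measured, with 0 higher and a median log2 ratio of -1.89. Osteocalcin, Bglap, had 51.0 CPM in cycling cells and 201 CPM in non-cycling cells, and Smpd3, a sphingomyelinase of mineralising tissue, had 64.9 CPM against 279 CPM. Phex, which regulates phosphate, had 2.81 CPM in cycling cells and 13.1 CPM in non-cycling cells, and Dkk1, a Wnt inhibitor, 3.42 CPM against 18.2 CPM. Bglap shares sequence with Bglap2, and their reads may be split between them. Without blood-marker cells the hypertrophy list still had 8 lower and the bone list 10 lower.

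Ibsp, Col2a1 and Col10a1 were also found where they should be absent. After thinning, Ibsp UMIs lay in 45.7% of cycling cells, 62.1% of non-cycling cells and 63.4% of the blood cells, so their presence in a cell is not read as expression. For Col2a1 these shares were 63.2%, 73.2% and 67.6%, and for Col10a1 4.13%, 11.3% and 11.0%. Before thinning Ibsp UMIs lay in 93.0% of cycling cells and 88.1% of non-cycling cells.

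Depth per cell moved with several of these results. Cycling cells were split by UMIs into 4 depth bins of near equal size, and non-cycling cells of the same ranges were set beside them. The shallowest bin (813 to 15169 UMIs) held 122 cycling cells and 71.7% of all non-cycling cells. Between the 25th and 75th percentiles of cycling depth (15241 to 28083 UMIs) stood 245 cycling cells and 1319 non-cycling cells, with medians of 21240 and 19590 UMIs. At this matched depth 1092 of 8012 genes were higher (13.6%) and 444 lower (5.54%).

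**Figure D2:**
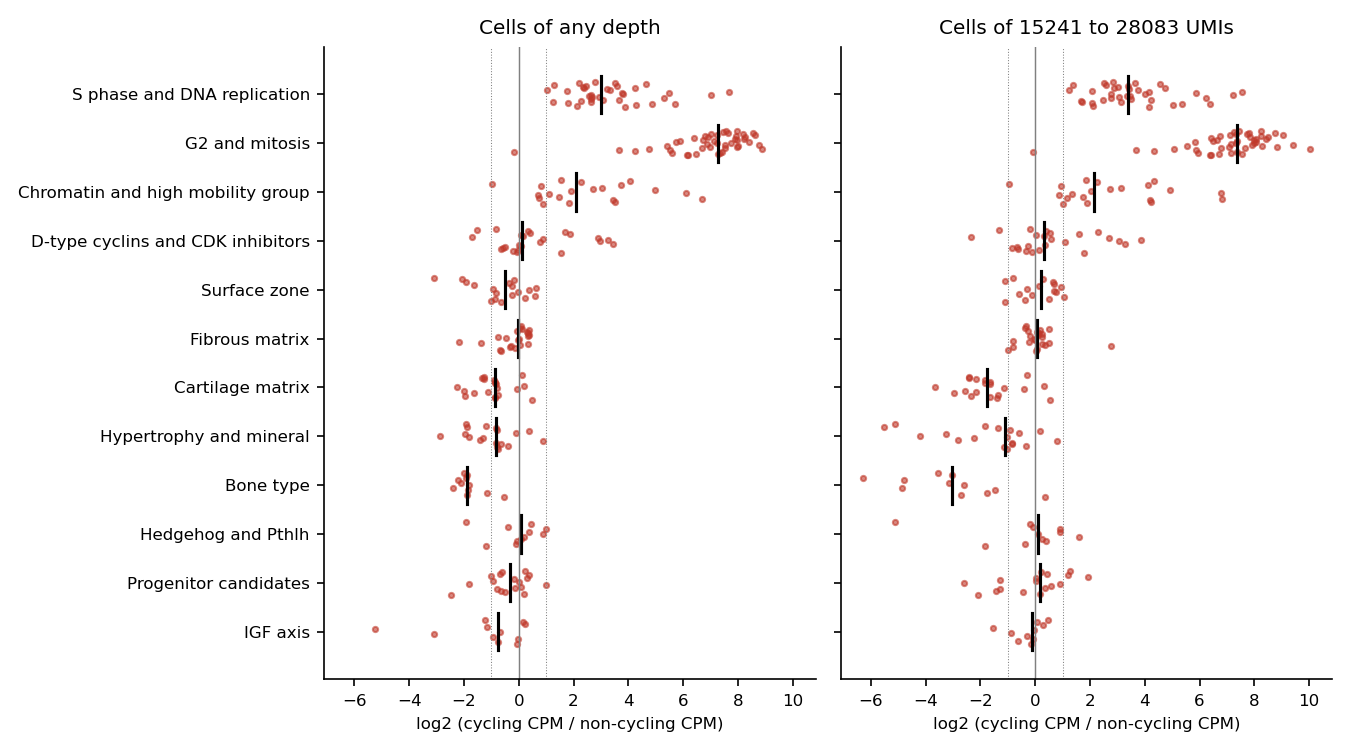
Log2 ratio of cycling over non-cycling CPM for each measured gene of the lists in the 13w library, with cells of any depth in one panel and cells of 15241 to 28083 UMIs in the other. Each point is a gene, Mki67 and Top2a are left out, and the cartilage, hypertrophy and bone lists lie further below 0 at matched depth while the surface list moves to a median of 0.20.

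Cartilage, hypertrophy and bone lists were also lower at matched depth. The cartilage list had 16 lower of 20 measured and 0 higher (median log2 -1.75), the hypertrophy list 11 of 18 and 0 higher (median -1.09), and the bone list 10 of 11 and 0 higher (median -3.03). In the deepest bin, with medians of 35454 UMIs in cycling cells and 35696 UMIs in non-cycling cells, the medians of these lists were -1.34, -0.75 and -1.64, so the size of the difference varied with depth. Ihh had 2.68 CPM in cycling cells and 92.3 CPM in non-cycling cells of this depth (log2 -5.11), Col10a1 12.8 CPM against 594 CPM, and Ibsp 1010 CPM against 18642 CPM. The surface list had 1 higher and 2 lower of 16, with a median log2 ratio of 0.20. Its direction turned with depth, from 0 higher and 10 lower of 18 in the shallowest bin (median -1.07) to 8 higher and 1 lower of 15 in the deepest (median 1.01). Prg4 had 4.59 CPM in cycling cells and 5.26 CPM in non-cycling cells at this depth, so the difference of the whole groups was not seen there.

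**Figure D3:**
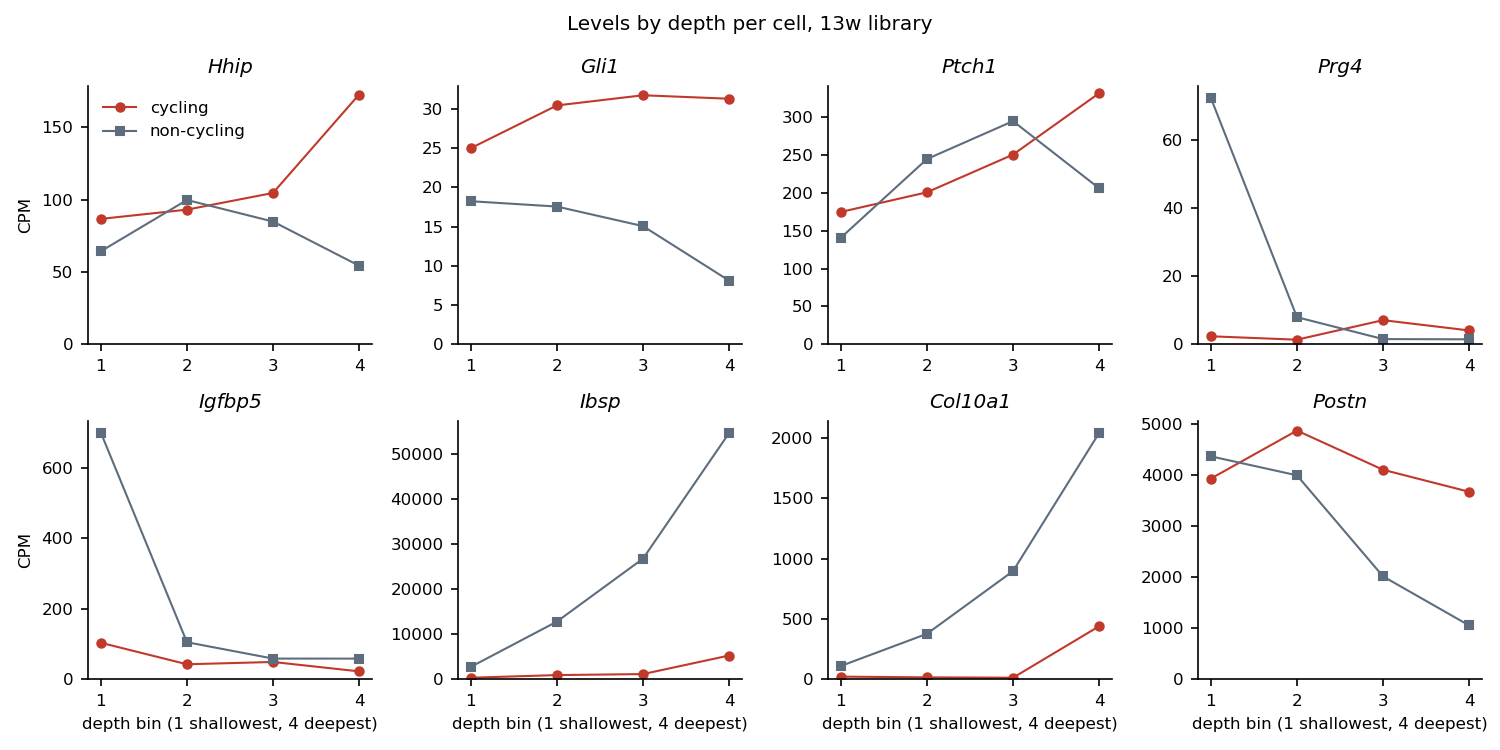
CPM of single genes in cycling and non-cycling cells of the 13w library within each of the 4 bins of cycling-cell depth, from shallow (1) to deep (4). Prg4 and Igfbp5 in non-cycling cells are concentrated in the shallow bin, Ibsp climbs with depth in both groups, and Hhip separates the groups in the deepest bin.

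The gene-wise course over depth showed where the surface genes lie. From the shallowest to the deepest bin Prg4 had 2.34, 1.34, 7.09 and 4.06 CPM in cycling cells, which rest on 3, 3, 21 and 20 UMIs, against 72.5, 7.97, 1.52 and 1.45 CPM in non-cycling cells. Within the shallowest bin the gene therefore stood lower in cycling cells, where the median was 11295 UMIs in cycling cells and 8259 UMIs in non-cycling cells. Postn had 3924, 4863, 4096 and 3666 CPM in cycling cells and 4359, 3987, 2010 and 1050 CPM in non-cycling cells of the same bins, so cycling cells of every depth kept a similar level while deep non-cycling cells had less. Ibsp had 301, 888, 1110 and 5232 CPM in cycling cells against 2723, 12779, 26756 and 54653 CPM in non-cycling cells, lower in every bin. Thbs4 turned direction at matched depth (log2 0.67), Cilp was at -0.81, Ogn at -0.83 and Aspn at -0.25. Abi3bp stayed lower (log2 -1.12), and Cd44 passed as higher (log2 1.05). Whether zone or depth sets these surface values was not tested.

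Hedgehog genes centred on 0 as a list, with 1 higher and 2 lower of 11 measured genes and a median log2 ratio of 0.08. The ligand gene Ihh and Pth1r were the lower ones, as given above. Gli1, a transcription factor and direct readout of the pathway, was the higher one, with 30.5 CPM in cycling cells and 15.2 CPM in non-cycling cells (log2 1.0, interval 0.83 to 1.17), so it sits on the 2-fold limit. Its thinned shares were 8.68% of cycling cells, 4.96% of non-cycling cells and 2.76% of the blood cells. At matched depth Gli1 had 31.2 CPM in cycling cells and 16.5 CPM in non-cycling cells (log2 0.92) and did not pass. Across the bins it was 25, 30.4, 31.7 and 31.3 CPM in cycling cells, against 18.2, 17.6, 15.1 and 8.11 CPM in non-cycling cells. Its ratio passed in the third and deepest bins (log2 1.08 and 1.95) and not in the shallower ones (0.46, interval -0.10 to 0.97, and 0.79, interval 0.39 to 1.18). The receptor gene Ptch1 had 268 CPM in cycling cells and 195 CPM in non-cycling cells overall (log2 0.46), and log2 -0.21 at matched depth. Gas1, a co-receptor, was at log2 0.20 overall and passed as higher at matched depth (log2 1.61).

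Hhip, the decoy receptor given as a marker of these cells, had 130 CPM in cycling cells and 70.8 CPM in non-cycling cells (log2 0.87, interval 0.79 to 0.96), short of 2-fold. Its UMIs lay in 22.9% of thinned cycling cells (19.3% to 26.9%), 12.8% of thinned non-cycling cells (11.9% to 13.6%) and 2.07% of the blood cells. Before thinning the shares were 62.2% of cycling cells and 30.0% of non-cycling cells. Hhip thus separated the groups less than Birc5, a mitosis gene that the rule makes likely to differ. The thinned shares of Birc5 were 82.0% and 0.597%, with 12.4% of the blood cells. Of 157 such blood cells before thinning, 32 held UMIs of both Mki67 and Top2a. For Birc5 these cells therefore do not gauge free RNA alone. At matched depth the difference was not seen, with 99.6 CPM in cycling cells and 93.5 CPM in non-cycling cells (log2 0.09, interval -0.05 to 0.23). By bin from shallow to deep, Hhip had 86.7, 93.1, 105 and 173 CPM in cycling cells and 64.4, 99.8, 84.9 and 54.3 CPM in non-cycling cells. The log2 ratio by bin was 0.43, -0.10, 0.30 and 1.67 in the same order, so cycling cells were higher in 3 of 4 bins with intervals off 0, and 2-fold was passed in the deepest bin alone. The same ratio was log2 0.15 at E16.5 (17.5 CPM in cycling cells, 15.8 CPM in non-cycling cells) and 1.20 at P0 (35.3 CPM, 15.4 CPM).

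Cycling cells with Hhip were compared with cycling cells without it. After thinning, 111 cycling cells held an Hhip UMI and 373 did not, and of 8098 measured genes 126 were higher (1.56%) and 113 lower (1.4%) in the Hhip cells. Among non-cycling cells the same split gave 18 higher (0.235%) and 89 lower (1.16%) of 7644 genes. Among the higher were Nog, a BMP antagonist, with 21.0 CPM in Hhip cells and 6.26 CPM in the others, Cnmd with 36.0 CPM against 13.4 CPM, and the Wnt ligand gene Wnt4 with 33.0 CPM against 12.5 CPM. Replication genes Hells, with 24.0 CPM against 58.1 CPM, and Lig1, with 39.0 CPM against 84.0 CPM, were lower. These genes were picked after their values were seen, and each rests on fewer than 50 CPM in the Hhip cells. That group is 111 cells thinned to 3000 UMIs each, so such levels stand for few UMIs. With few UMIs, counting error alone can carry an unchanged gene past the limits of a call. The called shares of 1.56% and 1.4% are small and were not set apart from such error. No difference between cycling cells with and without Hhip is therefore read from these genes. Within cells that hold Hhip, Bglap had 21.0 CPM in cycling cells and 194 CPM in non-cycling cells, Alpl 96.1 CPM against 440 CPM, and Ibsp 1517 CPM against 5629 CPM, so the lower mineral genes were seen on this background too, where 859 of 8249 genes were higher (10.4%) and 312 lower (3.78%). Of the 111 cycling cells with Hhip, 7 held Bglap UMIs after thinning, so the Bglap level there also rests on few UMIs. Between cells without Hhip, 932 of 8188 genes were higher in cycling cells (11.4%) and 495 lower (6.05%).

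**Figure D4:**
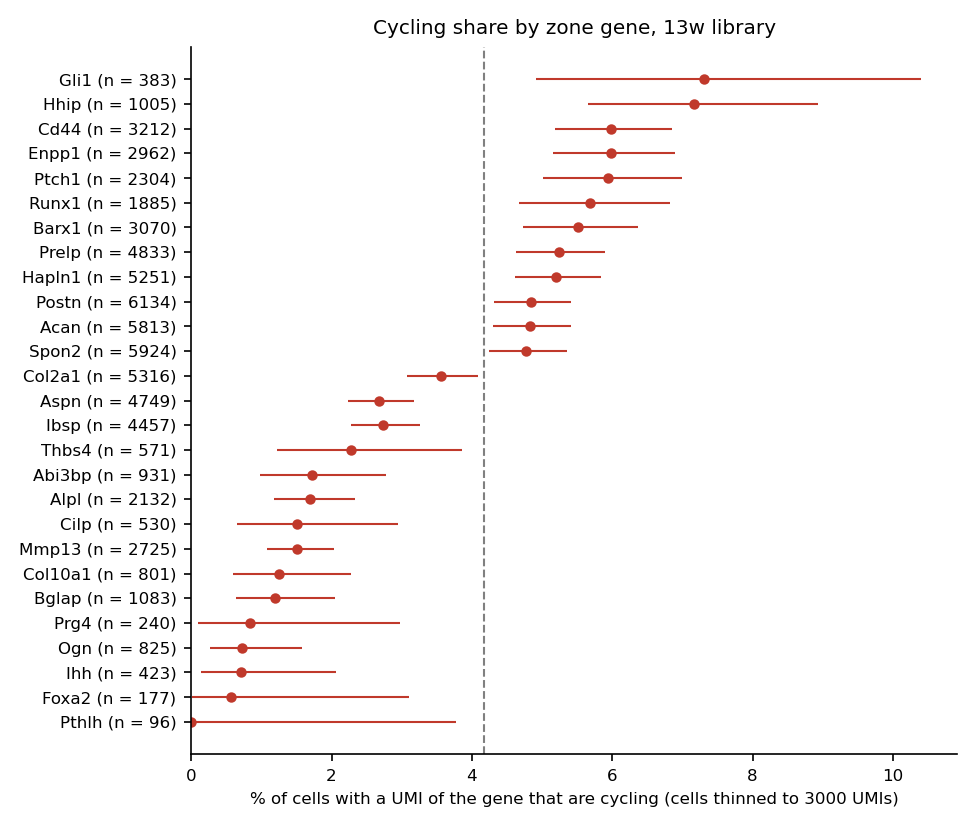
Share of cells with a UMI of each zone gene that met the cycling rule, with bars as 95% exact intervals and cell numbers in brackets. Kept cells of the 13w library without Ptprc or Pecam1 UMIs were thinned to 3000 UMIs. Over all 7312 cells 4.17% were cycling, and cells with Hhip or Gli1 lie above 7% while cells with Ihh or Prg4 lie below 1%.

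Read from the zone side, cells with the hedgehog targets Gli1 and Hhip had the highest cycling shares of the list genes examined. Kept cells without Ptprc or Pecam1 UMIs were thinned, and the rule was applied to the thinned counts. Of these 7312 cells, 305 were cycling (4.17%, 3.72% to 4.65%). The share was 7.31% among 383 cells with Gli1 (4.91% to 10.4%), 7.16% among 1005 cells with Hhip (5.65% to 8.94%) and 5.95% among 2304 cells with Ptch1. It was 4.84% among 6134 cells with Postn and 4.83% among 5813 cells with Acan, close to that of all cells. Lower shares came with late zone genes, 10 of 801 cells with Col10a1, 13 of 1083 cells with Bglap and 3 of 423 cells with Ihh (0.709%). Among 240 cells with Prg4 2 were cycling (0.833%, 0.101% to 2.98%). Cells with Pthlh, which surface layers secrete, gave 0 of 96, which allows a share of up to 3.77%. At matched depth 9.11% of all cells were cycling, against 9.26% of cells with Hhip, 13.6% with Gli1 and 0% with Ihh. Cells with Prg4 were few at this depth and gave 13.3% (1.66% to 40.5%), so the low share of Prg4 cells was not seen there.

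Single cells varied widely in their matrix. Per 3000 UMIs, the cartilage list held a median of 20 UMIs in cycling cells (25th to 75th percentile 10 to 48.5) and 18 in non-cycling cells (9 to 76.8). The hypertrophy list held 9 UMIs (5 to 23) in cycling cells and 15 (8 to 52) in non-cycling cells, and the 90th percentiles were 41.7 and 194.5. Fibrous genes held 267.5 UMIs in cycling cells and 267 in non-cycling cells. The groups thus overlap over most of their range. Cells with 400 or more UMIs of the hypertrophy list made up 0% of cycling cells and 2.67% of non-cycling cells.

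Transcription factors of the skeletal lineage differed little, with 0 higher and 2 lower of 23 measured genes and a median log2 ratio of -0.17. The lower ones were the hypertrophy factors Foxa2, with 3.25 CPM in cycling cells and 18.7 CPM in non-cycling cells, and Foxa3, with 7.63 CPM against 25.4 CPM. Sox9, the chondrocyte master factor, had 571 CPM in cycling cells and 731 CPM in non-cycling cells, Runx2 was at log2 -0.78 and Barx2 at 0.66. Candidate progenitor genes had 1 higher (Gli1) and 3 lower of 18 measured, with a median log2 ratio of -0.34. Ptprz1 had 4.83 CPM in cycling cells and 26.6 CPM in non-cycling cells, Cd200 68.2 CPM against 237 CPM and Cd34 6.58 CPM against 13.4 CPM. At matched depth this list had 3 higher and 5 lower of 17 with a median of 0.17, and Thy1, with 33.5 CPM against 8.76 CPM (log2 1.94), and Pdgfra (log2 1.27) were among the higher genes, while Cd34 was at log2 0.24.

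Over cells of any depth, signalling genes outside the hedgehog list were lower where they passed. In the Wnt list 5 of 17 measured genes were lower and 0 higher (median log2 -0.57), in the BMP and TGF-beta list 6 of 24 and 0 higher (-0.25), in the FGF list 3 of 14 and 0 higher (-0.48) and in the IGF list 4 of 11 and 0 higher (-0.75). At matched depth the IGF list had 1 lower and 0 higher of 10 (-0.11), the Wnt list 7 and 1 of 16 (-0.44), the BMP and TGF-beta list 5 and 0 of 22 (-0.12) and the FGF list 6 and 0 of 14 (-0.71). In the deepest bin the Wnt list had 5 lower and 4 higher of 16 (0.05), and the BMP and TGF-beta list 5 and 3 of 22 (0.09). The IGF list had 1 and 1 of 10 there (0.31), and the FGF list 4 and 0 of 12 (-0.48). Fgfr1, an FGF receptor gene, had 131 CPM in cycling cells and 304 CPM in non-cycling cells, and was at log2 -1.40 at matched depth. Tgfb2 had 64.9 CPM against 172 CPM (log2 -1.40), and the frizzled receptor gene Fzd9 had 14.1 CPM against 39.6 CPM (log2 -1.49). Igfbp5, an IGF-binding protein gene, had the largest ratio among lower genes of at least 100 CPM, with 41.9 CPM in cycling cells and 357 CPM in non-cycling cells (log2 -3.09). Its level in non-cycling cells was 699.9, 105, 58.3 and 58.1 CPM from the shallowest bin to the deepest, and its ratio at matched depth was log2 -0.90. Igf1 was at log2 -1.25 over all cells and at 0.47 at matched depth. Sfrp2, a Wnt antagonist, had 2.81 CPM in cycling cells and 38.8 CPM in non-cycling cells, but 81.2% of the cycling count came from 1 cell.

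Housekeeping programmes did not pass. Glycolysis and hypoxia genes had 0 higher and 0 lower of 22 (median log2 -0.02), and ribosome biogenesis genes 0 and 0 of 19 (-0.16). Immediate early and heat shock genes had 0 higher and 1 lower of 22 (-0.49), namely Hspa1a with 62.8 CPM in cycling cells and 131 CPM in non-cycling cells. Hspa1a shares sequence with Hspa1b. Of 5 measured imprinted growth genes 2 were lower, Cdkn1c and Peg3 (77.1 CPM against 165 CPM). The rest of the 10 largest ratios among lower genes were R3hdml, with 16.2 CPM in cycling cells and 110 CPM in non-cycling cells, the cartilage-secreted Mia with 24.8 CPM against 114 CPM, the calcium exchanger Slc8a3 with 22.3 CPM against 100.4 CPM, and Pcolce2, which aids collagen processing, with 114 CPM against 444 CPM.

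**Figure D5:**
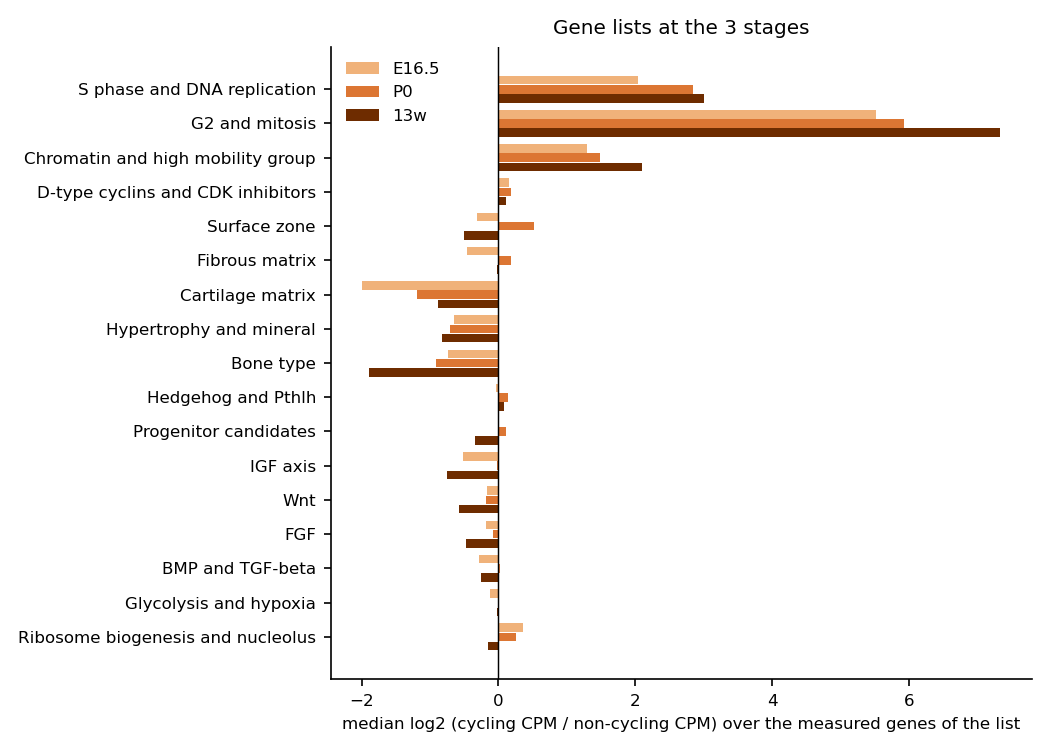
Median log2 ratio of cycling over non-cycling CPM for each gene list at E16.5, P0 and 13w, over the genes of the list that were measured at that stage. Cells of any depth are used, and the mitosis list includes Mki67 and Top2a. The S phase, mitosis and chromatin lists reach their highest medians at 13w, and the cartilage matrix list lies below 0 at all 3 stages. The list of D-type cyclins and CDK inhibitors has its lowest median at 13w (0.11), which was 0.34 at matched depth.

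The same contrast was made within the younger libraries. At E16.5, 491 of 8235 measured genes were higher (5.96%) and 384 lower (4.66%), and at P0 588 of 8048 were higher (7.31%) and 199 lower (2.47%). Higher genes made up 74.7% of the P0 calls, and 64.6% with TMM factors, which shift the log2 ratios by -0.12. Of the 845 genes higher at 13w, 432 were also higher at E16.5 (51.1% of the 13w genes, 88.0% of the E16.5 genes) and 479 at P0 (56.7% and 81.5%). Of the 290 lower genes, 89 were also lower at E16.5 (30.7% and 23.2%) and 80 at P0 (27.6% and 40.2%). Cartilage matrix genes were lower at every stage, in 16 of 19 at E16.5 (median log2 -1.99), 14 of 21 at P0 (-1.20) and 8 of 20 at 13w (-0.88). These values are over cells of any depth. At matched depth the 13w list had 16 of 20 lower (-1.75), so no course with age is read from them. In the order E16.5, P0, 13w, the log2 ratio was -2.78, -1.20 and -1.28 for Col2a1, -1.96, -0.89 and 0.13 for Acan, and -2.41, -1.17 and -0.05 for Hapln1. With 1 library a stage these differences in ratio were not tested.

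Bone-type genes were lower in 3 of 7 measured at E16.5 (median log2 -0.74), 2 of 8 at P0 (-0.91) and 10 of 11 at 13w (-1.89), with 0 higher at any stage. Among the mineral genes, Alpl was at log2 -0.59 in the E16.5 library, -0.61 in the P0 library and -1.95 in the adult one, and Bglap was measured at 13w alone. The surface list had 0 higher and 2 lower of 11 at E16.5 (median log2 -0.31), 2 higher and 0 lower of 13 at P0 (0.51) and 0 and 5 of 18 at 13w. At matched depth the 13w counts were 1 higher and 2 lower of 16 (0.20). The 2 higher at P0 were Thbs4 and Spon2, at log2 1.10 and 1.44. Gli1 had 31.0 CPM in cycling cells and 18.2 CPM in non-cycling cells at E16.5 (log2 0.77) and 34.5 CPM against 19.8 CPM at P0 (0.80), so its ratio lay between 0.77 and 1.0 at all 3 stages.

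Genes of at least 50 CPM that were higher in adult cycling cells, with a ratio near or below 1 at both younger stages, numbered 20. Among the 10 with the largest ratio, S100a9, Prtn3, Elane and Lyz2 are granulocyte or myeloid genes. S100a9 had 1139 CPM in cycling cells and 51.2 CPM in non-cycling cells, yet 26.2% of the cycling count came from 1 cell. Without the blood-marker cells these 4 genes were at log2 -0.38, 0.11, -0.68 and 0.06 and did not pass. The other 6 kept their call without those cells. They were Cdk6, the RNA-binding Larp1b (90.1 CPM in cycling cells, 32.1 CPM in non-cycling cells), the calmodulin gene Calm3 (212 CPM, 75.9 CPM), and 3 enzymes of sterol synthesis, Fdft1 (84.8 CPM, 29.0 CPM), Hmgcs1 (246 CPM, 106 CPM) and Fdps (318 CPM, 137 CPM).

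Adult cycling cells differed widely from cycling cells of the younger condyle. Of 8564 genes, 1244 were higher at 13w than at E16.5 (14.5%) and 1339 lower (15.6%), and of 8386 genes, 804 were higher at 13w than at P0 (9.59%) and 771 lower (9.19%). Higher genes made up 51.0% of the calls against P0, and 61.1% with median-of-ratios factors, which shift all log2 ratios by 0.11. The imprinted growth list was lower at 13w in 15 of 15 genes against E16.5 (median log2 -4.71) and 14 of 14 against P0 (-5.09). H19 had 8.07 CPM in 13w cycling cells and 2050 CPM in P0 cycling cells, Igf2, the fetal growth factor, 5.44 CPM against 1117 CPM, Mest 2.98 CPM against 513 CPM and Gpc3, a glypican, 2.19 CPM against 285 CPM. The non-cycling cells showed log2 13w over P0 of -7.55 for H19 and -7.64 for Igf2, beside -7.99 and -7.68 in cycling cells. Dlk1 rested on 2 UMIs at 13w, with 112 CPM at P0 (log2 -9.32, interval -12.37 to -7.47).

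Most surface-zone genes were higher in adult cycling cells than in younger cycling cells. The surface list was higher at 13w in 13 and lower in 4 of 18 genes against E16.5, and 12 and 2 of 17 against P0. Cilp2 had 118 CPM in 13w cycling cells and 0.269 CPM in P0 cycling cells, Spon2 1128 CPM against 15.4 CPM, and Ecm1 712 CPM against 17.9 CPM, while in non-cycling cells the log2 13w over P0 of these genes was 7.20, 7.28 and 5.75, beside 8.78, 6.20 and 5.31 in cycling cells. The clock gene Nr1d1 had 136 CPM in 13w and 4.77 CPM in P0 cycling cells, and time of day is not in the labels. The stage difference of Cilp2, Spon2 and Ecm1 was thus seen in both groups of cells. No share in the blood cells is given for these genes, so free RNA is not set apart from expression here. Of the 10 largest ratios 6 were the granulocyte genes S100a9, S100a8, Ngp, Camp, Elane and Prtn3, which rest on the blood-marker cells.

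Cell cycle lists shifted between stages within cycling cells. The G2 and mitosis list was higher at 13w in 15 and lower in 0 of 48 genes against both E16.5 (median log2 0.80) and P0 (0.74). This list includes Mki67 and Top2a, which chose the cells at each stage, so the shift only describes cells picked by them. Cells with exactly 1 UMI of each were 71 of 1186 at E16.5, 37 of 527 at P0 and 16 of 489 at 13w. The S phase list was lower at 13w in 14 and higher in 0 of 38 against E16.5 (-0.80), and lower in 3 and higher in 1 of 37 against P0 (-0.26). Ribosome biogenesis genes were lower at 13w in 17 of 20 against E16.5 and in 5 of 20 against P0, with 0 higher in either. As the share of cells, cycling cells made up 14.5% of thinned E16.5 cells (13.4% to 15.6%), 8.04% of those of P0 (7.18% to 8.97%) and 4.17% of those of 13w, with 26.0%, 13.2% and 6.09% before thinning. Mice were pooled and each stage is 1 library, so stage cannot be told apart from library.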

How the data were processed

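The authors deposited untransformed UMI counts for every gene in every called barcode, 1 library at each of 3 stages. The file headers name Cell Ranger 6.1.2, and the submitters' processing notes name GRCm39. Totals were 103827875 UMIs over 5458 barcodes at E16.5, 98486931 over 4853 at P0 and 115836876 over 8899 at 13w. Filtered counts were summed over cells of a group and scaled to CPM (python 3.11.15, numpy 2.4.6, pandas 2.3.3). A gene was measured where either group reached 10 CPM, and called with a ratio of at least 2 whose 95% conditional binomial interval excluded 1. Shares have Clopper-Pearson intervals (scipy 1.17.1), and a group with 0 counts is bounded by 3 counts. Each sum is 1 library, so no test was run. Cells of one library are not replicates.

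Shares of cells with a UMI were compared after thinning each cell to 3000 UMIs, which left 484 cycling and 6366 non-cycling cells at 13w. Scrublet, run through scanpy 1.11.5, marked 2 cells (0.025%) as doublets by its own threshold and was taken not to have worked, so doublets were kept and the removal of 548 high-scoring cells, at 0.8% per 1000 cells, was an alternative. Blood cells that gauge free RNA held Ptprc and at least 10 UMIs of S100a8 and S100a9. At 13w there were 157 such cells, and 32 held UMIs of both Mki67 and Top2a.

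The cells, the 20 gene lists with 497 genes and the markers were chosen with earlier results of these data known. Genes named were the 10 largest ratios in each direction among called genes of at least 100 CPM, the 10 largest of at least 50 CPM whose ratio stayed near or below 1 at both younger stages, up to 4 per list by size of ratio, and the 4 markers. The stage choice was the 10 largest ratios in each direction between 13w and P0 cycling cells of at least 100 CPM. Other genes named, such as Acan, Hapln1, Prelp, Enpp1, Spon2, Cd44 and Thy1, were chosen after their values were seen. The calling step was tested on simulated counts for each comparison, where it recovered 100% of 3-fold and 4-fold changes and called 0 unchanged genes. The simulated sums held counting error alone, without variation between cells, and no 2-fold change was planted. Their outcome therefore does not give the error rate of the calls on these cells. Promoters came from a RefSeq table by symbol, and no genome of the files' build was used. The alternatives were 13 planned and 2 added after seeing the data, with edgeR 4.0.16 used for TMM factors alone.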

Additional observations from a re-analysis of the deposited data

Results flagged for a closer look

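Thbs4, a thrombospondin of tendon and joint surface, differed in direction between stages. At 13w it had 14.3 CPM in cycling cells and 43.9 CPM in non-cycling cells (log2 -1.62), and at P0 33.6 CPM in cycling cells and 15.7 CPM in non-cycling cells (log2 1.10). Each stage is 1 library, and the difference between the stages was not tested. At matched depth the 13w ratio was log2 0.67.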

How the results depend on the processing

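No paired analysis was possible because each stage is a single library, and no test was run. Of 77 named calls, 50 to 77 held under each of the 15 alternatives, and calls on a different side of the limit are given as counts or log2 ratios here. At 13w the main counts were 845 higher and 290 lower genes.

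Asking for 2 UMIs of each gene left cycling shares of 20.6%, 10.9% and 5.36% at the 3 stages in order of age, or in thinned cells 2.41% of all, 4.58% of those with Hhip and 3.92% with Gli1, and 304 genes lower at P0. Accepting either gene gave 966 cycling cells at 13w and shares of 44.7%, 28.8% and 12.0% by stage, or in thinned cells 7.81% of all, 12.2% with Hhip, 12.0% with Gli1 and 2.36% with Ihh. It then called 210 genes lower at E16.5, 287 higher and 6 lower at P0, and 552 higher and 57 lower at 13w (90.6% of calls higher, against 74.4%), with Hhip at log2 0.68.

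Removing high doublet scores left a 13w share of 5.27%, 0% cycling among cells with Ihh and Hhip at log2 0.98. Removing cells with 3 UMIs of any other class left 151 cycling cells at 13w, shares of 23.1%, 11.1% and 3.92% by stage, thinned shares of 2.28% of all, 5.29% with Hhip, 2.25% with Gli1 and 0% with Ihh, 190 genes lower at E16.5 and 503 at 13w, and Hhip at log2 1.18. There Elane (log2 -0.023), Prtn3 (-0.86) and S100a9 (-0.83) turned direction, as did Prtn3 for 13w over P0 (-0.75). With Ptprc and Pecam1 cells in the comparison Lyz2 turned (-1.09). Without blood-marker cells Elane (-0.68 at 3 UMIs, -0.83 at 10) and S100a9 (-0.38, -0.29) turned, and the E16.5 share was 28.1%.

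Thinning to 3000 UMIs left 305 cycling cells at 13w, shares of 13.3%, 7.59% and 3.96% of kept cells by stage, 470 genes lower at 13w and Hhip at log2 0.79. TMM factors put Hhip at log2 0.79 too. With no filter on low values 943 genes were higher and 1356 lower at E16.5, 1291 and 649 at P0, 1605 and 1002 at 13w, 2348 and 2965 for 13w over E16.5, and 1632 and 2081 for 13w over P0. This tests more genes.

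At matched depth, 245 cycling cells made up 13.6% of cells at 13w, with 39.5% at E16.5 and 24.0% at P0. Thinned shares were 9.11% of all, 9.26% with Hhip, 13.6% with Gli1, 13.3% with Prg4 (few cells) and 0% with Ihh. Genes lower numbered 232 at E16.5, 1013 were higher and 615 lower at P0, and 444 were lower at 13w. Hhip was at log2 0.090, and Cd34 (0.24), Igf1 (0.47) and Thbs4 (0.67) turned direction. The cause of these changes was not tested. Median-of-ratios factors moved the median of all genes by -0.11 at P0, 0.12 for 13w over E16.5 and 0.11 for 13w over P0, with 61.1% of the last calls higher against 51.0%. Depth limits genes below 10 CPM, and 1 library a stage limits every comparison between stages.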

Other observations

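Sterol synthesis genes were looked at after 3 of them appeared among the genes higher in adult cycling cells, so the list of 24 genes was chosen after values were seen and supports nothing by itself. At 13w, 12 of 22 measured genes were higher in cycling cells, 0 lower and 21 above 0, with a median log2 ratio of 1.09. At E16.5 the counts were 0 higher and 0 lower of 23 (median 0.06), and at P0 0 and 0 of 23 (median -0.06). At matched depth in the adult library, 10 of 22 were higher and 0 lower (median 0.89). Idi1, an isomerase of the isoprenoid steps, had 177 CPM in cycling cells and 74.4 CPM in non-cycling cells at 13w. Ggps1, which leads away from sterols, was at log2 -0.20. The difference between stages was not tested.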
